A study of Mus musculus with 2 samples.

Results

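The genes described here are the families that carry a synaptic vesicle from docking to fusion: synaptotagmins, syntaxins, vesicle-associated membrane proteins (VAMPs), synaptosome-associated proteins (SNAPs), synapsins and the SV2 glycoproteins. They were chosen by a rule on symbols, which gave 50 of the 19070 genes counted: 17 Syt, 15 Stx, 7 Vamp, 5 Snap, 3 Syn and 3 Sv2 genes. Both this choice and the classes below were made with earlier results of these data known. From known function, 22 were put in a neuronal class, 19 in a broad class, not confined to neurons, for traffic in endosomes, the Golgi or at the cell surface, and 9 in neither. Some of the broad class, such as Stx11, are best known from particular cell types. The study counted transcripts on coronal brain sections with Visium HD, in which pairs of gene probes hybridised to fixed, paraffin-embedded tissue are counted as unique molecular identifiers (UMIs) on a grid of squares, here 16 µm bins. A first section came from a mouse 3 days after controlled cortical impact (CCI), an open-skull blow by a piston to the right parietal cortex, and a second from a mouse 28 days after the same injury. Both were male C57Bl6 mice labelled 3 months old, and all tissue was fixed by perfusion with PFA. With 1 mouse and 1 section per time point and no sham section, the spread between animals is unknown and nothing was tested against it. All intervals are 95% intervals that cover counting error only.

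Release of transmitter rests on SNARE proteins. A VAMP on the vesicle zips together with a syntaxin and a SNAP on the plasma membrane and pulls the membranes into contact, while synaptotagmins sense calcium and trigger the fusion. Synapsins hold vesicles in a reserve near the release site, and SV2 proteins are vesicle glycoproteins needed for normal release. Related family members outside the synapse use the same zippering to fuse endosomes, Golgi vesicles, lysosomes and secretory granules in every kind of cell.

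As an example from each class, the 250 bases before the RefSeq start of Syn1 and of Vamp8 are printed. They run 5′ to 3′ on the strand of the gene, from build GRCm38.p6. This pair does not stand for the classes. Syn1 coats the vesicles of neurons. Vamp8 serves fusion of endosomes and granules, and was among the broad members highest in the lesion relative to the opposite side. Capitals mark the cAMP response element (CRE, TGACGTCA), which in Syn1 began 159 bases before the start.
Syn1, chrX:20920919-20921168, minus strand: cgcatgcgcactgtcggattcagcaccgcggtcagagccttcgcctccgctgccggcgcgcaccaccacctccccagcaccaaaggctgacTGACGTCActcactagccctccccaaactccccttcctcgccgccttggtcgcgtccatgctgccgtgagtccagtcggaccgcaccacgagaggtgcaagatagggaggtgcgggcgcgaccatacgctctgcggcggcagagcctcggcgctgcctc
Vamp8, chr6:72390668-72390917, minus strand: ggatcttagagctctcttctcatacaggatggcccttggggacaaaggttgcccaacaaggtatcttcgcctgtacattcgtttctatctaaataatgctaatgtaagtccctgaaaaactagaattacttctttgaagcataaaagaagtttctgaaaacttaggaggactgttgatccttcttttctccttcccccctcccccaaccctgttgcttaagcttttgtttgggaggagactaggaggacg
The Syn1 stretch was 68% G or C and that of Vamp8 43.6%. Of the 50 members, 39 had an entry in the promoter table, 14 of them neuronal, 18 broad and 7 in neither class. Read on both strands, the CRE was found in 1 of the 14 neuronal members, Syn1, and in 0 of the 18 broad ones, against 1.62% of all 27025 promoters of this length. The GC box, GGGCGG, was found in 11 of 14 neuronal (78.6%), 9 of 18 broad and 5 of 7 other members, against 32.9% of all promoters. These are matches of letters, not evidence of a bound factor.

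The 3 days section held 120615873 UMIs in 121967 bins (median 836 per bin) and the 28 days section 82422389 UMIs in 105589 bins (median 596). Levels are given as CPM, the UMIs of a gene scaled to a fixed total of all UMIs in the area. Because the probes per gene differ, levels are compared between areas. Where genes are ordered by their UMIs, the order is one of probe counts, not of transcript abundance. The injured side was the side under column 130 of the array at 3 days and under column 240 at 28 days. Bins were summed in tiles of 64 µm. The lesion zone was placed by 6 phagocyte genes, none of them a member, and compared with its mirror image on the opposite side of the same section, the mirrored area (mirror zone in the plots). It covered 578 tiles at 3 days, against 555 mirror tiles over tissue, and 903 against 792 at 28 days. The injured side was cut off by the array edge at 3 days, and at 28 days a cavity had replaced cortex above the zone. The zone was shallower than its mirror: at 3 days its bins held 602 UMIs on average and those of the mirror 935, at 28 days 528 and 642.

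**Figure D1:**
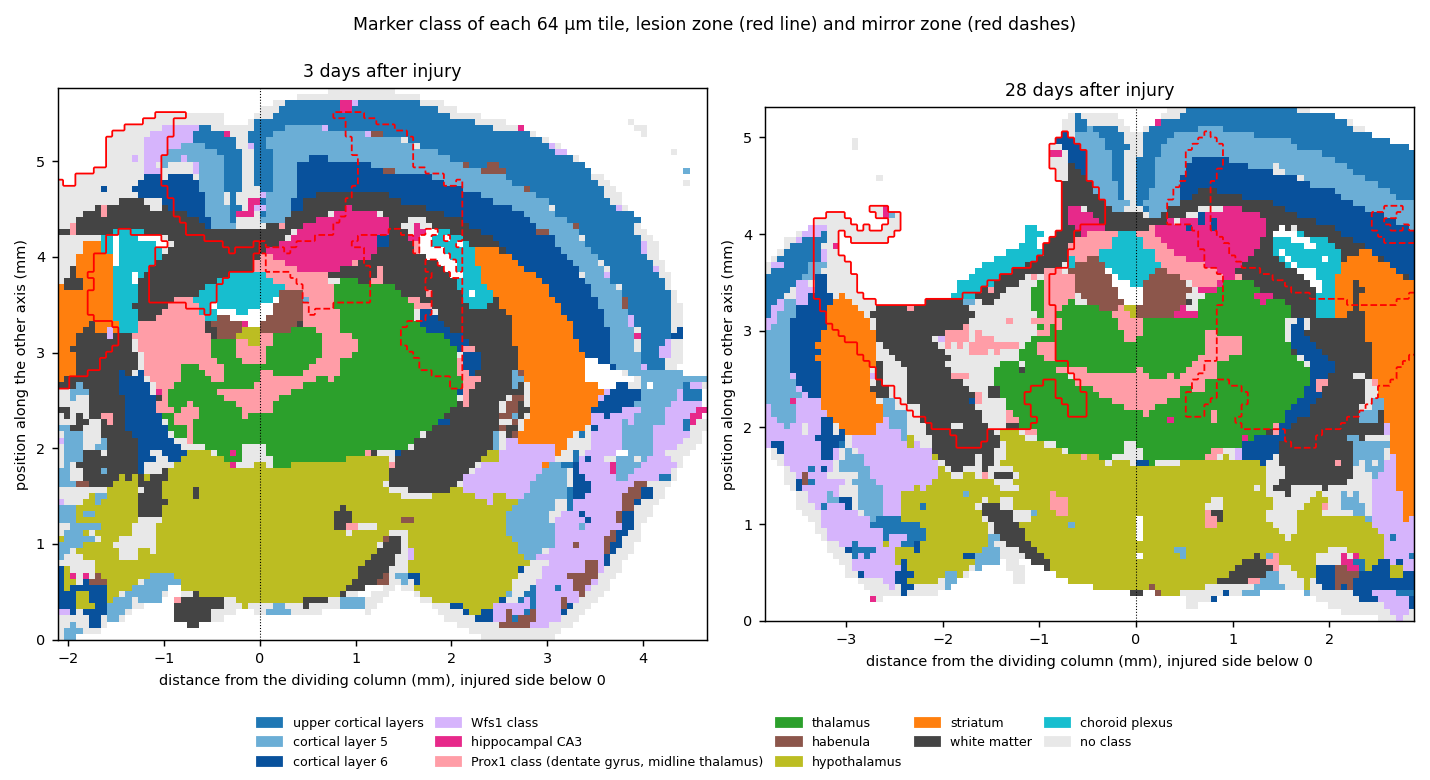
Marker class of each 64 µm tile in the 3 days section (left) and the 28 days section (right), with distance from the dividing column in mm on the horizontal axis (injured side below 0) and position in mm on the vertical axis. The solid red line encloses the lesion zone, 578 and 903 tiles, and the dashed red line its mirror image, so that the anatomy under each can be compared.

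Each tile was assigned to an anatomical class by fixed marker lists. The list named for hippocampal CA1 picked out a ventrolateral band as well (called the Wfs1 class after a leading marker), that for the dentate gyrus also took in midline thalamus (the Prox1 class), so that its dorsal part was read separately, and some tiles classed as cortical lay beside the thalamus. The habenula class was compact at 28 days, where its own markers summed to 1617 CPM. At 3 days it was scattered, with 469 CPM.

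The neuronal members supplied most of the UMIs of the families. The 22 of them summed to 8638 CPM at 3 days and 8692 CPM at 28 days, the 19 broad members to 1509 and 1512 CPM, and the 9 others to 1289 and 1275 CPM. Snap25, the neuronal SNARE of the plasma membrane that botulinum toxin A cuts, had 400738 UMIs at 3 days, the most of any gene in the section, and was counted in 69.0% of bins. At 28 days it had 289559 UMIs, ranked 4 among all genes, and was counted in 62.3% of bins. Other neuronal members with many UMIs were Syn1, with 849 and 807 CPM, and Vamp2, the vesicle SNARE of most central synapses, with 774 and 758 CPM. Syt1, the fast calcium sensor of the forebrain, had 766 and 754 CPM. The broad members with the most UMIs were the endosomal and Golgi syntaxins Stx12 (230 and 231 CPM), Stx16 (211 and 198), Stx7 (184 and 204) and Stx6 (175 and 169), and the surface syntaxin Stx4a (130 and 128). Outside both classes Syt11, a synaptotagmin that does not bind calcium, had 672 and 676 CPM. At the other end Syt8 had 8 and 10 UMIs in a whole section, Stx19 18 and 13, and Vamp9 77 and 56. These 3 did not reach the 20 UMIs over both zones that a comparison required, which left 47 members.

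On the opposite side the neuronal members followed grey matter, with a few clear departures. Snap25 had 5624 CPM in upper cortical layers at 3 days (interval 5582 to 5666) and 6494 at 28 days (6430 to 6557), against 1245 and 1404 CPM in white matter and 186 and 227 CPM in choroid plexus. CA3 stood close to cortex, with 5271 and 5767 CPM, thalamus lower at 3685 and 3958, and striatum and hypothalamus lower again, from 1894 to 2084 CPM. Layer 5 went from below CA3 at 3 days (4921 CPM) to 6565 CPM at 28 days, where it was not distinguishable from upper layers, and the rest of these classes kept their order. The dorsal dentate gyrus, the habenula class and some others are not part of this order. Summed over the 3 cortical classes and compared with white matter, the neuronal members had a median log2 ratio of 1.47 at 3 days and 1.27 at 28 days. At least 2-fold higher in cortex were 14 of 22 and 13 of 22, where 12% and 11.1% of all genes passed the same fold. The excess was not particular to the neuronal class. Members of neither class had medians of 1.47 and 1.15, with 5 of 7 and 4 of 6 at least 2-fold higher in cortex. The broad members had medians of -0.46 and -0.27, and 5 of 18 and 5 of 17 were at least 2-fold lower in cortex, beside the 21.3% and 17.9% of all genes that were. Against choroid plexus, 18 and 19 of the 22 neuronal members were at least 2-fold higher in cortex (20.8% and 21.8% of all genes) and 5 of 18 and 3 of 17 broad members at least 2-fold lower (23.2% and 20.1%). Of the neuronal members, 2 and 1 were at least 2-fold lower in cortex than in choroid plexus. These were Syt9 (-3.21 and -2.07, from 12 and 11 UMIs in choroid plexus) and, at 3 days, Syt10 (-1.72, from 24 UMIs there).

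Within the neuronal class, members differed in where they were highest. Stx1a, a plasma membrane syntaxin of neurons, had with Sv2b the highest ratios of cortex to white matter, 4.32 and 3.22 on the log2 scale: 388 and 395 CPM in upper layers against 16.2 and 31.8 in white matter and 51.2 and 29.3 in striatum. Sv2b was highest in CA3 (439 and 424 CPM) and low in white matter (25.8 and 29.4). At 3 days its interval in CA3 overlapped that of the habenula class (418 CPM). Sv2c, the form known from the basal ganglia, had 306 CPM in striatum at 3 days (288 to 325) and 286 at 28 days (268 to 305), but 6.8 in CA3 in both sections and 8.04 and 7.48 in thalamus. In the dorsal dentate gyrus it had 325 CPM at 3 days, not distinguishable from striatum by counting error, and 89.0 at 28 days. The ubiquitous form Sv2a lay between 128 and 223 CPM across the cortical, CA3, thalamic, hypothalamic, striatal and white matter classes, so that Sv2c per 100 Sv2a went from 239 and 220 in striatum to 3.60 and 3.74 in thalamus.

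Vamp1, the vesicle SNARE best known from brainstem, spinal cord and the neuromuscular junction, had 423 and 378 CPM in thalamus and 63.5 and 69.0 in striatum. It was also as high in white matter (275 and 282 CPM) as in much of cortex, and its log2 ratio of cortex to white matter was -0.30 and 0.04. Vamp1 per 100 Vamp2 was 46.2 and 40.3 in thalamus, 10.6 and 11.4 in striatum and 70.6 and 66.1 in white matter. Other neuronal members without an excess in cortex over white matter were Sv2a (-0.14 and -0.10), Syt2 (-0.15 and 0.11), Sv2c (-0.27 and -0.97) and Syt9 (-1.17 and -0.78), and for Syt10 none was detectable (-0.025, -0.56 to 0.61, and 0.34, -0.28 to 1.09). Syt2, the fast sensor of inhibitory and brainstem terminals, was highest in layer 5, at 73.5 and 144 CPM. At 3 days its interval there overlapped that of white matter (62.2 CPM).

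At 28 days the neuronal members furthest above their next class were Syt9 and Syt6. In that section Syt6 had 310 CPM in the habenula class (279 to 344) and 124 in striatum, the next class, and 2.43 in thalamus. At 3 days, where the habenula class was scattered, Syt6 was highest in striatum at 108 CPM, followed by that class at 80.9 and by layer 6 at 65.1. Syt9, a fast sensor related to Syt1, had 156 CPM in the habenula at 28 days (134 to 181), 3.38-fold above the 46.2 in thalamus. At 3 days it had 43.6 CPM in thalamus and 36.6 in the habenula class, and at most 2.21 in the 3 cortical classes. Syt7, a sensor with high calcium affinity, had 737 and 858 CPM in thalamus, and 446 and 922 in the dorsal dentate gyrus. Syn2 was highest in CA3 (655 and 641 CPM).

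Of the broad members, Stx16 was highest in hypothalamus, at 274 and 273 CPM against 178 and 153 in upper layers, and Stx3 in the dorsal dentate gyrus, at 51.9 and 67.0 CPM against 14.4 and 21.0 in white matter. For Stx3 the intervals overlapped those of choroid plexus, the next class (45.8 and 43.5 CPM). Several others led in white matter or choroid plexus. Stx12 lay between 181 and 256 CPM in the cortical, CA3, dentate, thalamic, hypothalamic, striatal and white matter classes of both sections, with 128 and 119 in choroid plexus. The habenula class was above that range, at 277 and 280 CPM, with intervals that overlapped those of the next class. Of the members with at least 500 UMIs on the opposite side, Vamp8 stood furthest above its next class. It had 405 CPM in choroid plexus at 3 days (360 to 454) and 410 at 28 days (367 to 457), 7.54-fold and 10.8-fold above the next class. Vamp3, the recycling endosome VAMP known as cellubrevin, had 151 and 166 CPM in white matter against 43.8 and 47.4 in layer 5. Vamp5, first known from muscle, had 20.8 and 22.4 CPM in choroid plexus, 16.2 and 15.9 in white matter and 2.02 and 3.24 in upper layers. Stx4a had 240 and 242 CPM in white matter and 94.3 and 96.2 in upper layers.

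**Figure D2:**
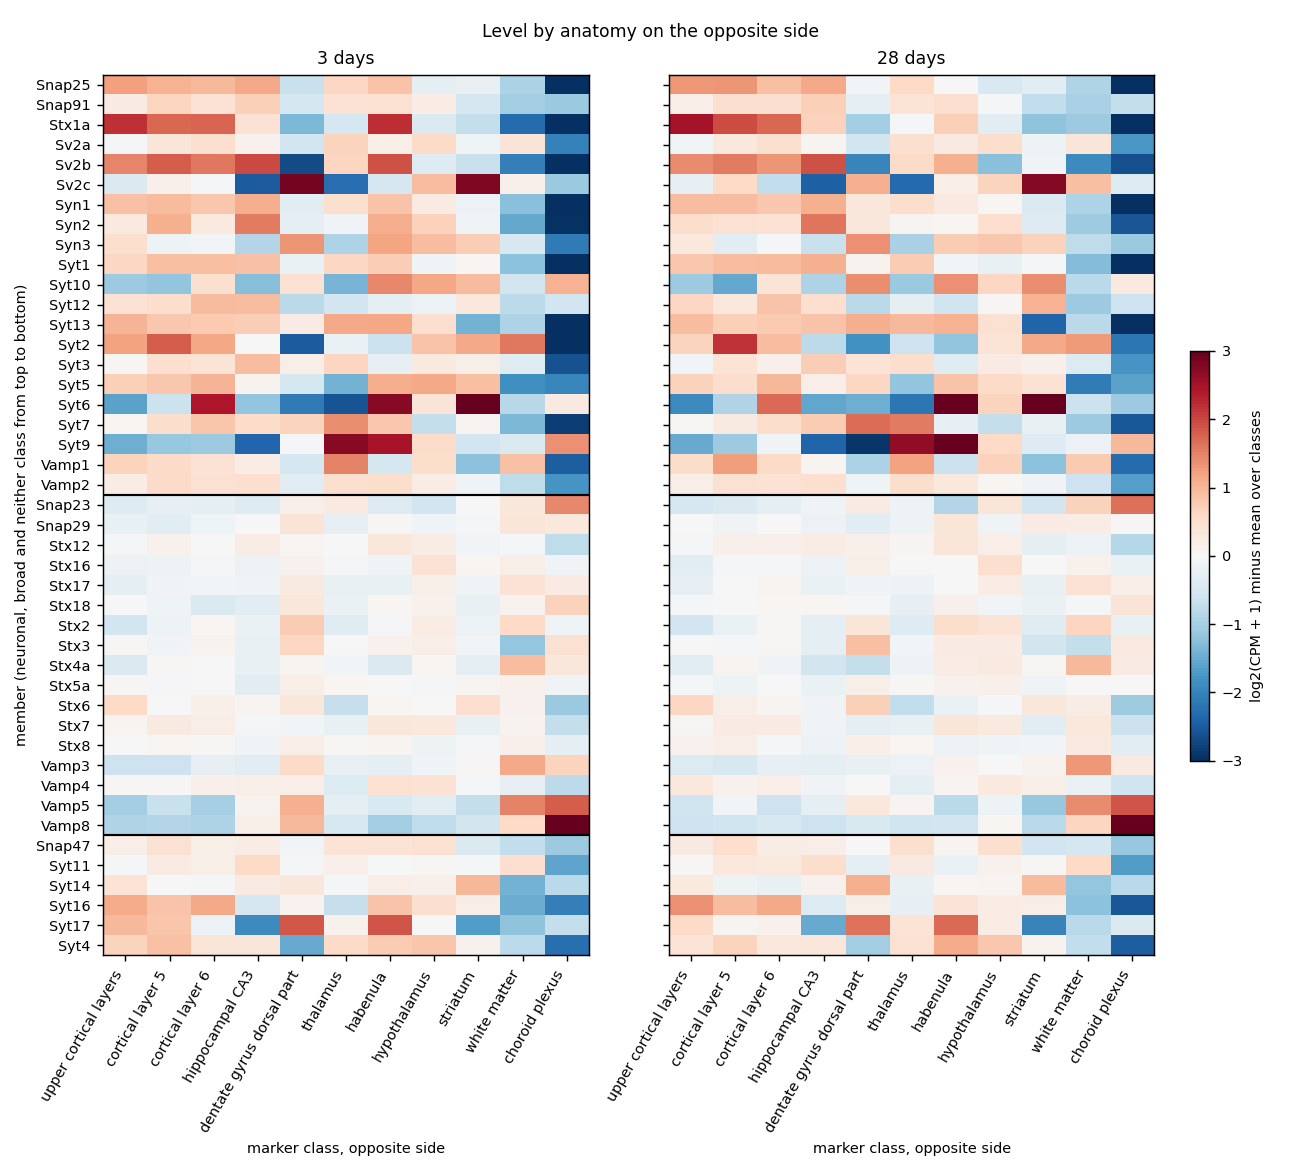
Level of the members shown, each with at least 200 UMIs on the opposite side of both sections (rows, grouped as neuronal, broad and neither) in 11 marker classes of the opposite side (columns), as log2(CPM + 1) minus the mean of the row. Most neuronal rows are blue in white matter and choroid plexus, Sv2c and Syt6 are red in striatum, Vamp8 is red in choroid plexus (405 and 410 CPM), and most broad rows are pale.

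In the lesion zone the neuronal members were lower than in the mirrored area in both sections, and most broad members were not. At 3 days 15 of the 22 neuronal members were at least 2-fold lower and 1 was at least 2-fold higher, where 8.84% of 13565 genes were at least 2-fold lower and 17.4% higher. Their median log2 ratio was -1.60, beside 0.13 over all genes. At 28 days 15 of 22 were again at least 2-fold lower and 0 higher, where 8.16% of 13619 genes were lower and 16.5% higher, and the median was -1.07 beside 0.00 over all genes. At 28 days many members lay close to that fold, and with the zone at the 95th percentile the count there was 7. Against opposite tiles of the same class the neuronal medians were -0.64 at 3 days and -0.67 at 28 days, and the counts 4 and 1. The 18 broad members tested had medians of 0.33 and 0.36, with 0 at least 2-fold lower in either section and 5 and 4 at least 2-fold higher. The 7 tested members of neither class had medians of -0.65 and -0.71. The CPM scale sets each gene against all others in the area. With TMM scaling the median over all genes was -0.04 and -0.06, and per bin, without scaling to the total, -0.50 and -0.28. Per bin, the broad median at 3 days turned to -0.31, which lies above that shift. In these bins fewer neurons and less RNA per neuron cannot be told apart.

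Among the SNAREs that neurons use for release, Snap25 had 936 CPM in the zone and 4202 in the mirrored area at 3 days, which is -2.17 as a log2 ratio (-2.21 to -2.12). At 28 days it had 1437 against 4026 CPM, or -1.49 (-1.52 to -1.45). Vamp1 gave the lowest ratio of the members with at least 200 UMIs at 3 days: 45.0 against 252 CPM, or -2.48 (-2.69 to -2.28). At 28 days it had 127 against 398 CPM, or -1.65 (-1.76 to -1.55). Its paralogue Vamp2 was less far below the mirrored area, with 350 against 832 CPM at 3 days (-1.25) and 381 against 762 at 28 days (-1.001). There were thus 12.9 Vamp1 UMIs per 100 of Vamp2 in the zone and 30.2 in the mirrored area at 3 days, and 33.3 and 52.3 at 28 days. Stx1a had 57.3 against 151 CPM at 3 days (-1.40) and 46.8 against 71.7 at 28 days (-0.61). Snap91, which shares the SNAP symbol but is the clathrin adaptor AP180 of vesicle recycling, had ratios of -1.69 and -1.07.

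The synaptotagmins gave ratios in the same range. Syt1 had 275 against 928 CPM at 3 days (-1.76) and 340 against 821 at 28 days (-1.27). Syt7 had 111 against 430 CPM (-1.95, -2.08 to -1.82) and 198 against 517 (-1.39). Syt2 had 10.3 against 35.6 CPM (-1.78) and 23.2 against 81.5 (-1.81, -2.07 to -1.56). Syt9 was the lowest of the neuronal members at 28 days along with Syt2, at 5.87 against 20.8 CPM (-1.81, -2.35 to -1.33). Its ratio of -1.51 at 3 days rested on 12 UMIs in the zone. Syt13, which lacks calcium binding, had ratios of -1.85 and -1.07, and Syt3 of -1.69 and -1.29. Less far from the mirrored area were Syt5 (-0.18 and -0.90) and Syt12 (-0.69 and -1.02). For Syt10 a difference was not detectable at this depth: its ratio was 0.20 at 3 days (-0.23 to 0.61), then -0.13 (-0.58 to 0.31).

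Of the synapsins, Syn1 had 292 against 972 CPM at 3 days (-1.73) and 344 against 735 at 28 days (-1.09), and Syn2 104 against 341 (-1.71) and 120 against 209 (-0.80). Syn3, which is used early in neuronal development, had ratios of -0.15 (-0.52 to 0.20) and -0.91. Of the SV2 genes, Sv2b had 81.5 against 268 CPM (-1.71) and 53.4 against 165 (-1.63, -1.80 to -1.47), while Sv2a had 91.6 against 172 (-0.91) and 95.4 against 195 (-1.03). Sv2c and Syt6 ran against their class at 3 days. Sv2c had 94.7 CPM in the zone and 52.6 in the mirrored area (0.85, 0.66 to 1.04), and Syt6 52.9 and 17.9 (1.56, 1.27 to 1.87). At 28 days both were lower in the zone, with 36.5 against 59.3 CPM for Sv2c (-0.70, -0.93 to -0.48) and 15.5 against 29.7 for Syt6 (-0.93, -1.27 to -0.60). The 2 areas did not match in anatomy. At 3 days 84 zone tiles and 0 mirror tiles were of the striatum class, and all 6 striatum markers were at least 2-fold higher in the zone, with a sum of 784 against 170 CPM. At 28 days the counts of striatum tiles were 48 and 95 and the sum 356 against 1261 CPM, all 6 at least 2-fold lower. Within striatum tiles, Sv2c had 215 CPM in the zone against 306 on the opposite side at 3 days (-0.51) and 166 against 286 at 28 days (-0.78), and Syt6 98.6 against 108 (-0.12, -0.47 to 0.20) and 69.4 against 124 (-0.82). In other classes Syt6 at 3 days stayed higher in the zone than in opposite tiles of the same class, with 204 against 65.1 CPM in layer 6 (1.66, 1.23 to 2.04) and 38 against 16 UMIs in white matter (1.66, 0.81 to 2.63), and over all classed tiles it was 0.59.

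Among the broad members Vamp8, Vamp3, Vamp5, Stx2 and Stx11 were at least 2-fold above the mirrored area at 3 days, and all of these but Vamp3 at 28 days. Vamp8 had 88.8 against 37.0 CPM at 3 days (1.26, 1.05 to 1.48) and 111 against 24.3 at 28 days (2.19, 1.97 to 2.43). The markers of choroid plexus, its highest class, summed in the zone to 1344 against 4810 CPM and 213 against 1606, while the tiles of that class numbered 21 against 19 and 3 against 9. Without choroid plexus tiles the ratios were 1.67 and 2.45. Vamp3 had 178 against 72.7 CPM at 3 days (1.29, 1.14 to 1.44) and 124 against 73.6 at 28 days (0.75, 0.59 to 0.90). The markers of white matter, the class with most Vamp3 on the opposite side, summed to 11333 against 4343 CPM at 3 days and 8419 against 8197 at 28 days. Vamp5 had 24.8 against 5.998 CPM (2.04) and 21.0 against 5.76 (1.85, 1.38 to 2.37), from 125 against 48 and 150 against 46 UMIs.

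Stx2, a surface syntaxin known as epimorphin, had 76.1 against 34.7 CPM at 3 days (1.13) and 64.6 against 29.7 at 28 days (1.12). Stx11, which cytotoxic lymphocytes and other immune cells use to release granules, had 79 UMIs in the zone and 36 in the mirrored area at 3 days (1.79) and 65 against 8 at 28 days (3.10, 2.12 to 4.45). Smaller excesses with intervals above 0 in both sections were those of Stx4a (0.42 and 0.43), Stx7 (0.25 and 0.33), Snap29 (0.62 and 0.52) and Snap23 (0.69 and 0.59), the SNAP of non-neuronal exocytosis. Vamp4, of the trans-Golgi, was slightly lower (-0.37 and -0.19), and Stx3, of the apical surface and of ribbon synapses, was lower at 3 days (-0.63) with -0.02 (-0.30 to 0.25) at 28 days. Stx8 (0.15 and 0.40), Stx5a (0.11 and 0.21) and Stx18 (0.40 and 0.04) had an interval above 0 in 1 section each. Stx12, Stx16, Stx17 and Stx6 had ratios between -0.18 and 0.14. Over all genes the medians were 0.13 and 0.00, and the Stx7 interval at 3 days (0.13 to 0.37) reached the first. Counted per bin, where the all-gene medians were -0.50 and -0.28, Stx4a, Stx7, Snap29 and Stx18 fell below 0 at 3 days. So did Stx5a at 28 days, while Snap23 stayed above 0 in both sections. Beside these values, all 7 microglia markers were at least 2-fold higher in the zone, with sums of 2537 against 709 CPM at 3 days and 6551 against 406 at 28 days. So were all 5 fibroblast markers (520 against 73.1 CPM and 366 against 41.6), while 3 of 4 endothelial markers were so at 3 days (389 against 118 CPM) and 0 of 4 at 28 days (246 against 174). Of the 6 astrocyte markers 2 and 4 were at least 2-fold higher, with sums of 6182 against 4249 and 12620 against 4376 CPM. At 3 days that sum rested on Gfap (3503 against 1040 CPM), while Slc1a2 (-0.75) and Aldoc (-0.81) were below 0. Because the zone was placed by phagocyte genes, higher microglia markers there follow in part from that choice and are not an independent observation. Members that phagocytes express would be raised by the same choice. The part of microglia, fibroblasts, endothelial cells and astrocytes in the ratios of the broad members was not tested.

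**Figure D3:**
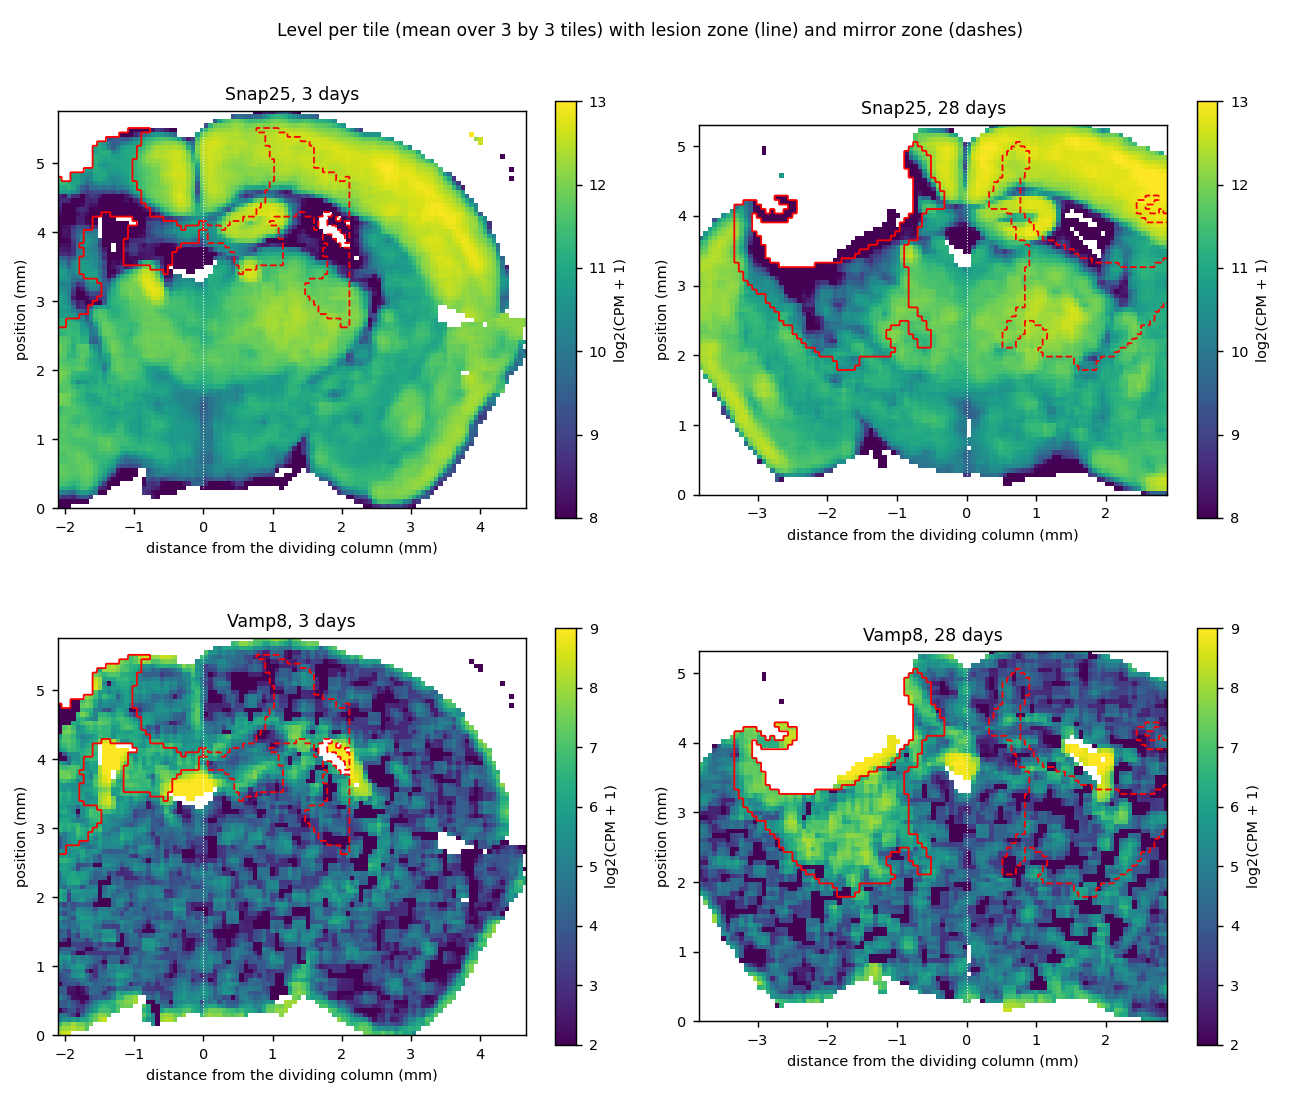
Level of Snap25 and of Vamp8 in each tile as log2(CPM + 1), averaged over 3 by 3 tiles, in the 3 days and the 28 days section (axes as in the map of marker classes). Snap25 is yellow to green over grey matter and darkest along ventricles and in much of the zone, 936 against 4202 CPM in the mirrored area at 3 days and 1437 against 4026 at 28 days. Vamp8 is brightest at the ventricles, and brighter in the zone (88.8 and 111 CPM) than in the mirrored area, outlined by dashes (37.0 and 24.3 CPM).

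Of the 7 tested members in neither class, Syt16 (-1.07 and -1.26) and Snap47 (-0.94 and -0.98) fell in the range of the neuronal members, with Syt14 (-0.68 and -0.84) and Syt4 (-0.46 and -0.71) nearer 0. Syt11 differed little: 648 against 754 CPM at 3 days (-0.22) and 601 against 758 at 28 days (-0.34). Syt15 had 37 UMIs against 9 at 3 days (2.65) and 22 against 10 at 28 days (1.26). Syt17 was below the mirrored area at 3 days (-0.65, -1.01 to -0.30) but above it at 28 days (0.38, 0.02 to 0.75), and neither sign held under every alternative. At 3 days it was 0.29 with the dividing column 16 higher, and at 28 days it was -0.031 with the zone at the 95th percentile, -1.07 with the column 16 lower, -1.18 against the whole opposite side and -0.85 against the same class.

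**Figure D4:**
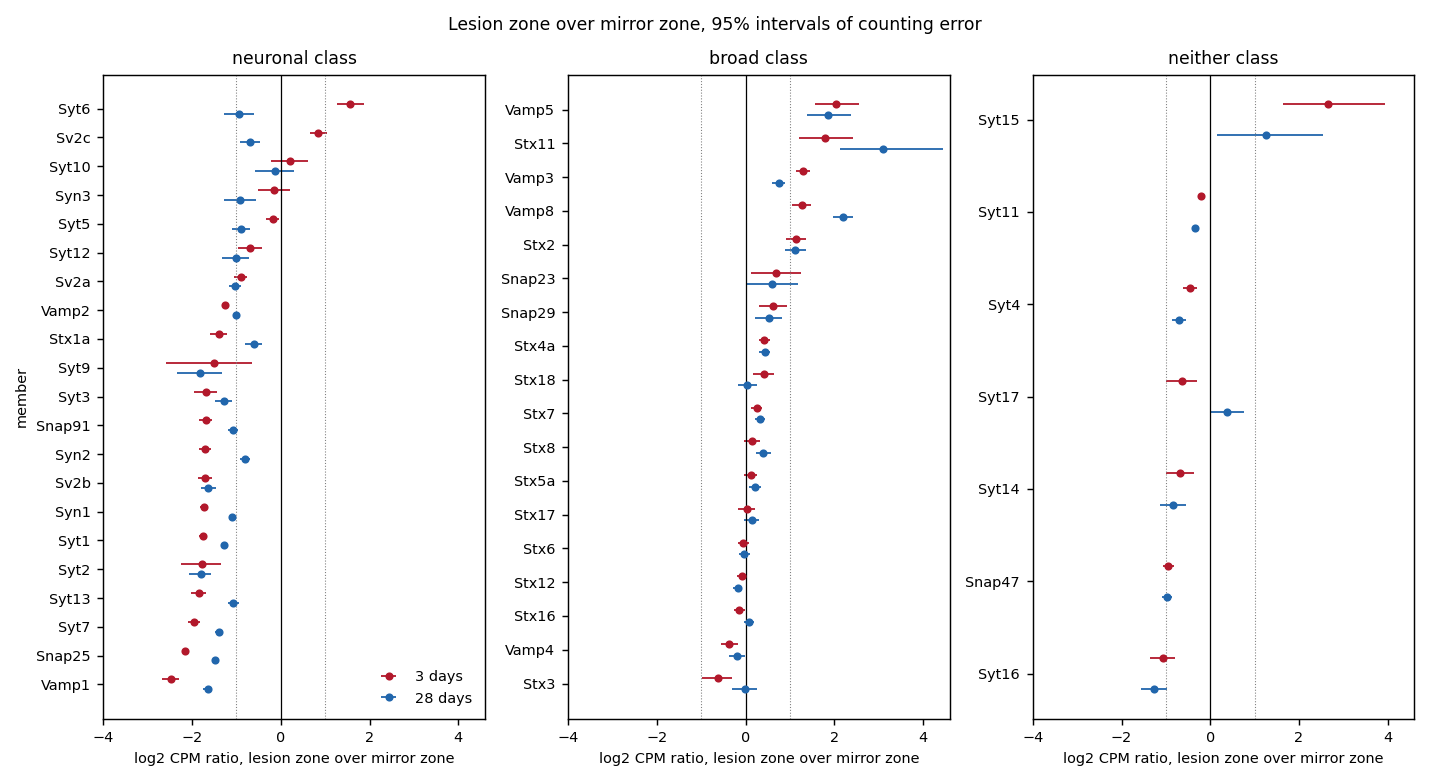
Log2 ratio of CPM in the lesion zone to the mirrored area for the tested members shown (rows, in panels for the neuronal, broad and neither class), 3 days in red and 28 days in blue, with 95% counting intervals and dotted lines at a 2-fold difference. Most neuronal members lie at or beyond the lower dotted line in each section and no broad member does, while Sv2c and Syt6 lie on opposite sides of 0 in the sections.

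The same held for the rest of the release pathway. Of 35 other genes of docking, priming and recycling, 34 were tested (Bsn was not among the genes counted). At least 2-fold lower in the zone were 25 at 3 days and 24 at 28 days, and 0 were higher, with medians of -1.56 and -1.23, beside the 8.84% and 8.16% of all genes that were lower. Of the 12 neuron markers 7 and 10 were at least 2-fold lower, with medians of -1.29 and -1.23. Syp, the vesicle protein synaptophysin, had 411 against 1349 CPM (-1.71) and 488 against 1210 (-1.31). Rab3a, a GTPase of the vesicle, had ratios of -2.04 and -1.37. Slc17a6, the glutamate transporter of thalamic vesicles, had -2.96 at 3 days and -1.27 at 28 days. Snapin was higher (0.87 and 0.32), and Syngr1 was at -0.93 and -0.01.

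Because the mirrored area held other anatomy than the zone, the ratios were also read by the class of the mirror tile and by the class of the zone tile itself. At 3 days 100 mirror tiles were of CA3, 97 of layer 6, 77 of thalamus and 56 of layer 5, against 0, 22, 0 and 0 in the zone, while white matter took 119 mirror tiles and 248 zone tiles. In the first reading only the mirror tile was chosen by its markers, and the zone tile was taken as it came. Low neuronal ratios over grey matter classes, and higher ones over white matter, follow in part from that choice. The part of anatomy in them was not tested. Over mirror tiles of upper layers the neuronal median was -2.45, over CA3 -2.33, over the Prox1 class -2.01 and over thalamus -1.28. It was smaller over layer 6 (-0.89) and layer 5 (-0.50), and over white matter it was 0.27. Snap25 went with it: 335 against 5986 CPM over upper layers (-4.15), 617 against 5219 over CA3 (-3.08) and 820 against 616 over white matter (0.41). At 28 days the medians were -2.08 over CA3, -2.05 over layer 6, -1.09 over striatum, -0.98 over thalamus, -0.90 over layer 5, -0.74 over white matter and -0.33 over the Prox1 class. Snap25 had 813 against 5289 CPM over layer 6 (-2.70), 861 against 5732 over CA3 (-2.73) and 2049 against 4371 over thalamus (-1.09). The all-gene medians of these strata lay between -0.08 and 0.23. Vamp8 was higher in the zone over all of these classes in both sections, at 28 days by 2.84 over layer 6, 2.99 over thalamus and 2.95 over striatum.

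When each classed zone tile was set against opposite tiles of its own class, the neuronal ratios shrank. Their median was -0.64 at 3 days and -0.67 at 28 days, beside 0.01 and -0.05 over all genes. The members at least 2-fold lower were 4 at 3 days, Syt2 (-2.03), Vamp1 (-1.99), Snap25 (-1.02) and Syt7 (-1.003), and 1 at 28 days, Syt9 (-1.05), where 6.01% and 3.58% of all genes were. The broad medians were 0.12 and 0.15. At least 2-fold higher were 2 and 3 of them, where 10.3% and 9.63% of all genes were, and Vamp8 stood at 0.65 and 1.68. This reference leaves out the 165 of 578 and 286 of 903 zone tiles without a class, and a tile that has lost its markers cannot be classed. White matter gave the largest class of zone tiles, 248 and 321. In it the neuronal median was -1.03 and -0.89, the lowest of the classes read. In the other classes the neuronal median lay between -0.64 and 0.04 at 3 days and between -0.78 and -0.38 at 28 days. Within white matter Vamp1 had 51.0 against 275 CPM at 3 days (-2.43) and 139 against 282 at 28 days (-1.02).

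The 12 markers of neurons were lower in the zone too, with 3111 against 6892 CPM at 3 days (-1.15) and 2998 against 6847 at 28 days (-1.19). Single markers ran from -2.07 to -0.18 at 3 days and from -1.67 to -0.65 at 28 days, so values per marker UMI depend on the list. Counted per UMI of those markers, the neuronal members had a median log2 ratio of -0.45 at 3 days, with 13 intervals below 0 and 7 above, and 0.12 at 28 days, with 7 below and 9 above. Snap25 had 30.1 UMIs per 100 marker UMIs in the zone and 61.0 in the mirrored area at 3 days (-1.02), and 47.9 against 58.8 at 28 days (-0.30). Vamp1 had 1.45 against 3.65 (-1.33) and 4.23 against 5.82 (-0.46). Vamp2, by contrast, had ratios of -0.10 and 0.19. The broad members had medians of 1.47 and 1.55, beside the 1.28 and 1.19 of all genes. On this scale 8899 of 13565 genes at 3 days and 8505 of 13619 at 28 days were at least 2-fold higher. That 18 of 18 broad intervals lay above 0 in each section therefore does not set the class apart. The share of all genes with intervals clear of 0 was not counted on this scale.

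The neuronal median was closer to 0 in every band outside the zone than in it in both sections. At 3 days the neuronal median was -0.60 in the band from 0 to 250 µm, -0.20 from 250 to 500 µm, -0.08 from 500 to 1000 µm and 0.05 from 1000 to 2000 µm. The neuron markers summed to -0.78, -0.24, -0.13 and -0.07 in the same bands. In the nearest band 5 neuronal members were at least 2-fold lower and 3 higher, where 3.58% and 11.6% of all genes were. Snap25 had 1996 against 3828 CPM there (-0.94) and -0.17 in the next band, and Vamp1 131 against 393 CPM (-1.58, -1.71 to -1.45) and then -0.42. At 28 days the neuronal medians were -0.25, -0.02, 0.10 and 0.09, those of the neuron markers -0.35, -0.10, 0.17 and 0.11, and 0 neuronal members were at least 2-fold lower in the nearest band (0.691% of all genes were, and 6.78% higher). Snap25 stood at -0.42 and -0.17 in the nearest 2 bands, and above 0 at 0.36 and 0.34 in the outer ones.

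Some members departed from that course. At 3 days those at least 2-fold lower in the nearest band were Vamp1, Syt7 (-1.32), Syt13 (-1.14), Syt3 (-1.14) and Syt9 (-2.06), and those at least 2-fold higher Syt6 (1.21), Syt10 (1.22) and Sv2c (1.19). From 250 to 500 µm 2 were lower (1.55% of all genes were), Syt6 and Syt9, both at -1.70, and 0 higher (8.67%). From 500 to 1000 µm there were 0 either way (0.694% and 3.78%), and from 1000 to 2000 µm 0 were lower (0.571%) and 1 higher (0.879%), Syt6 at 1.203. At 28 days the counts lower and higher were 1 and 1 from 250 to 500 µm (0.731% and 3.62%), 3 and 2 from 500 to 1000 µm (1.8% and 1.95%) and 2 and 2 from 1000 to 2000 µm (1.16% and 2.65%). At 28 days Vamp1 stayed low, at -0.69, -0.96, -0.90 and -0.42 from the nearest band outward, and Syt2 had 19.1 against 53.2 CPM from 500 to 1000 µm (-1.47). In the same band Stx1a had 189 against 61.2 CPM (1.62) and Sv2b 213 against 86.7 (1.30). Bands on the sides of a deformed brain cut different structures, and the part of anatomy in these ratios was not tested. Next to the zone Vamp8 was above its mirrored band too, with 155 against 30.9 CPM at 3 days (2.32, 2.07 to 2.59) and 78.7 against 15.2 at 28 days (2.36, 2.02 to 2.74). In that band the choroid markers were higher by 4.05 and 7.70 on the log2 scale and the microglia markers by 0.59 and 1.39, and their part was not tested. The broad median was 0.32 there at 3 days and 0.08 at 28 days, and within 0.12 of 0 further out.

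**Figure D5:**
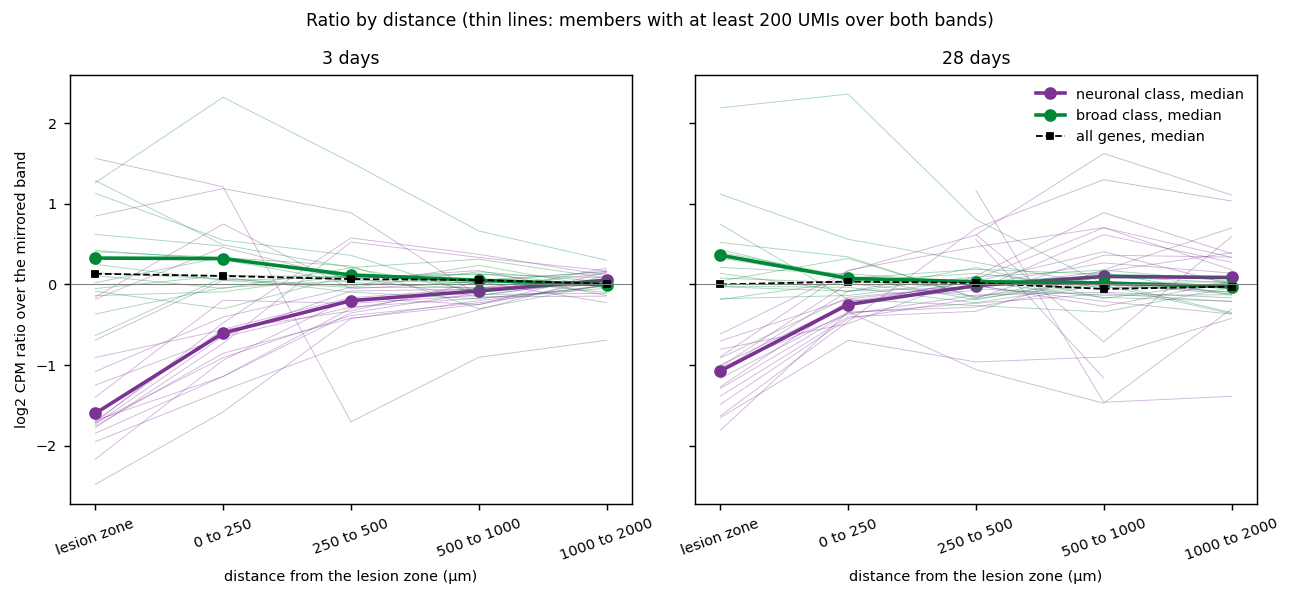
Log2 CPM ratio to the mirrored band (vertical axis) in the lesion zone and in 4 distance bands in µm (horizontal axis) for the neuronal class (purple) and the broad class (green) at 3 days and 28 days, with class medians as thick lines, members with at least 200 UMIs over both bands as thin lines and the median of all genes dashed. The neuronal median goes from -1.60 in the zone to 0.05 in the last band at 3 days and from -1.07 to 0.09 at 28 days, and the highest thin green line in the band from 0 to 250 µm is Vamp8 (2.32 and 2.36).

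In cortex of the injured side outside the zone, neuronal members differed less than 2-fold from the opposite side once tiles were matched, except Syt10 at 28 days. Tiles were classed as cortical by layer markers, so cortex that had lost those markers was left out, with or without matching. The ratios therefore describe only tiles that kept them. Over 125 cortical tiles at 3 days and 104 at 28 days whose mirror tile was cortical too, the neuronal median was -0.16 and -0.04, beside 0.01 and 0.03 over all genes. Of the 21 neuronal members tested in each section, 0 were at least 2-fold lower, where 1.14% and 0.748% of all genes were. At least 2-fold higher were 0 at 3 days (5.53% of all genes) and 1 at 28 days (1.88%), Syt10, whose interval spanned 0. Of the 16 broad members tested in each section, 2 were at least 2-fold higher at 3 days, Vamp8 and Snap29 (23.3 against 10.4 CPM, 1.14, 0.45 to 1.93), and 1 at 28 days, Snap23, with 14 against 7 UMIs and an interval spanning 0. Snap25 had 5102 against 5068 CPM at 3 days (0.01, -0.03 to 0.05) and 5566 against 6237 at 28 days (-0.16, -0.20 to -0.13). The neuron markers differed by 0.05 and -0.15. At 3 days Syn2 was higher, with 423 against 265 CPM (0.67, 0.53 to 0.82), and Syt7 lower, with 280 against 427 (-0.61, -0.74 to -0.47). At 28 days Vamp1 was lower, with 241 against 350 CPM (-0.54, -0.71 to -0.37), and Sv2c lower, with 27.9 against 52.3 (-0.90, -1.40 to -0.43). Vamp8 was above the mirror tiles at 3 days, with 28.8 against 7.57 CPM (1.89, 1.14 to 2.80), and at 28 days 18.9 against 11.5 CPM was not a detectable difference (0.71, -0.04 to 1.51). The microglia markers were higher in these tiles by 1.55 and 0.997 on the log2 scale, and their part was not tested.

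Over all cortical tiles outside the zone, without matching, the neuronal median was -0.12 at 3 days (391 injured against 1614 opposite tiles) and -0.01 at 28 days (444 against 935), and single members spread further. Within the layer 5 class, Sv2b had 182 against 390 CPM (-1.10) and Stx1a 139 against 283 (-1.03) at 3 days, and Vamp1 162 against 391 (-1.27) and Syt2 58.5 against 144 (-1.29) at 28 days. These departures were absent or smaller in the matched tiles, where Sv2b had -0.14 and Stx1a 0.00 at 3 days and Syt2 -0.08 at 28 days. Markers of GABAergic neurons differed by 1.35 and -0.75 without matching and by 0.079 and -0.045 with it. White matter markers differed by 1.08 and -0.89 without matching and still by -0.59 and 0.41 with it, and their part in the matched values was not tested. Outside cortex the neuronal medians of the injured side were 0.037 and 0.0091 in thalamus, 0.019 and 0.094 in hypothalamus, -0.22 and 0.12 in striatum, and -0.24 and -0.13 in the habenula class. White matter stood at 0.40 at 3 days, with 12 of 22 intervals above 0 and 0 below, and at -0.083 at 28 days, beside 0.022 and 0.049 over all genes. Choroid plexus stood at 0.058 at 3 days and -0.80 at 28 days, with 8 of 18 intervals below 0, beside 0.020 and -0.038 over all genes. The share of all genes with intervals clear of 0 was not counted.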

How the data were processed

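The authors counted UMIs per gene and bin with Space Ranger (4.0.1 per the file headers; build mm10 per the submitters' processing notes) from mouse probe libraries, and the deposited counts at 16 µm were used unscaled. Bins under 100 UMIs were left out, 1.93% at 3 days and 2.15% at 28 days, and bins were summed in 4 by 4 tiles. The lesion zone held tiles whose share of 6 phagocyte genes, smoothed over 5 by 5 tiles, passed the 99th percentile of the opposite side, in patches of at least 25 tiles. Tiles were classed by marker lists at z of at least 1. Genes needed 20 UMIs over both areas. Ratios of CPM (pseudocount 0.5) carry exact conditional binomial 95% intervals and levels exact Poisson intervals, for counting error only. With 1 section per group there was no test, and called means at least 2-fold. The members and lists were chosen with earlier results of these data known. Named by rule were the 5 members of either class with the most UMIs, the 3 highest and 3 lowest zone ratios among members with at least 200 UMIs, and members with at least 500 UMIs whose highest class was at least 2-fold above the next. Others were chosen after their values were seen. Alternatives changed the zone threshold, dividing column, scaling, minimums, reference area and class threshold. The code was tested on simulated data. Python 3.11.15, numpy 2.4.6, scipy 1.17.1, pandas 2.3.3, R 4.3.3 and edgeR 4.0.16 (TMM factors) were used. Some single genes are not reported here, though class counts and medians include them.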

Additional observations from a re-analysis of the deposited data

Results flagged for a closer look

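Members of the families whose ratio of lesion zone to mirrored area had opposite signs in the sections, with both intervals clear of 0, were Sv2c, Syt6 and Syt17. The log2 ratio was 0.85 at 3 days and -0.70 at 28 days for Sv2c, 1.56 and -0.93 for Syt6, and -0.65 and 0.38 for Syt17. With 1 section per time point the difference between the sections was not tested. Against opposite tiles of the same marker class the ratios were -0.19 and -0.85 for Sv2c, 0.59 and -0.49 for Syt6 and -0.54 and -0.85 for Syt17.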

How the results depend on the processing

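No paired analysis was possible because each group had 1 section. In the zone the neuronal median stayed below 0 and the broad median above 0 under all alternatives run, except the broad median per bin at 3 days. In cortex outside it the neuronal median at 28 days crossed 0, from -0.044 to 0.027. With the zone at the 95th percentile the neuronal median was -1.26 at 3 days and -0.84 at 28 days, 7 members were at least 2-fold lower at 28 days (15 in the main setting), and the cortical median at 3 days was -0.044. A dividing column 16 lower left 3 broad members at least 2-fold higher at 3 days. TMM scaling gave a cortical median of -0.28 at 3 days. Counted per bin, the neuronal medians were -2.24 and -1.35 and the broad ones -0.31 and 0.081, with 2 broad members higher at 3 days. The same-class reference, chosen after seeing the data like the setting without choroid plexus tiles and the matched cortical tiles, gave neuronal medians of -0.64 and -0.67 with 4 and 1 members lower, a broad median of 0.12 at 3 days and 2 broad members higher. Of the member values under alternatives, 544 moved by less than their interval, 275 by more and 11 changed sign. Those were, per bin, Stx18 (-0.23), Stx4a (-0.21), Stx7 (-0.39) and Snap29 (-0.015) at 3 days and Stx5a (-0.070) at 28 days. Counting per bin moves all genes alike (all-gene medians -0.50 and -0.28), so the sign of these members rests on the scaling chosen. The others were Sv2c at 3 days against the same class (-0.19), and Syt17. Syt17 changed sign at 3 days with the column 16 higher (0.29). At 28 days it did so at the 95th percentile (-0.031), with the column 16 lower (-1.07), against the whole opposite side (-1.18) and the same class (-0.85). Causes were not tested. Depth limited members under about 200 UMIs, such as Syt10, Syt15 and Stx11.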
